A study of Homo sapiens with 20 samples.

Results

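Oxidative phosphorylation subunits are the proteins that build the respiratory chain and the ATP synthase of mitochondria. The rule that chose them uses the gene symbol: a probe set (a group of array probes read as 1 value) with a single symbol of the NDUF, SDH, UQCR, CYC1, COX4 to COX8 or ATP5 series, and for each gene the probe set with the highest mean. This gave 62 of the 14232 genes measured through a probe set with 1 symbol: 26 of complex I, 3 of complex II, 7 of complex III, 14 of complex IV and 12 of complex V. RefSeq holds 86 protein-coding genes with such names, of which 61 are members. Of the others, 14 (among them ATP5F1B, NDUFS1 and UQCRB) shared a probe set with other symbols, 10 (among them SDHB, NDUFV2 and UQCRFS1) had no named probe set, and COX7A2 was left out by the rule. UQCRBP1, the remaining member, is a transcribed pseudogene. The subunits encoded in mitochondrial DNA are outside the rule and were not analysed here.

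The respiratory chain passes electrons from NADH, through complex I, and from succinate, through complex II, to ubiquinone, then through complex III, cytochrome c and complex IV to oxygen. Complexes I, III and IV pump protons as they do so, and complex V, the ATP synthase, lets the protons back to make ATP. Most subunits are encoded in the nucleus, and their genes are known to be switched on together by the nuclear respiratory factor NRF1, by GABPA, an ETS family factor, and by coactivators of the PGC-1 family. MYC is also known to raise many genes of mitochondrial biogenesis, and BET inhibitors lower MYC in many blood cancer lines.

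The samples were 2 human cell lines, LP-1, from a multiple myeloma, and Raji, from a Burkitt lymphoma. Each line was either left untreated (0 h) or treated for 4 h or 8 h with a BET inhibitor or with the inactive enantiomer, its mirror-image molecule, both at 500 nM. The labels do not name the compound. Each of the 10 groups held 2 biological replicates per the labels, hence 20 exon arrays. LP-1 was grown in IMDM and Raji in RPMI, each with 10% fetal bovine serum, so line and medium cannot be told apart. No untreated or vehicle-only sample was given for 4 h or 8 h, so in the comparison of inactive compound with untreated cells the compound and the time in culture cannot be told apart. Values are log2 expression, on which 1 unit is a 2-fold difference. Errors given as ± are standard errors of a difference, and p-values come from limma and were adjusted by the Benjamini-Hochberg method over all 22011 probe sets, with 0.05 as the threshold. With 2 arrays a group, the number of arrays limits the precision.

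Replicate arrays correlated at 0.973 to 0.989, and at 0.976 to 0.995 over the 62 subunits alone. Array medians ran from 5.13 to 5.39. Most markers followed the labels of the lines. On every LP-1 array 9 of 9 plasma cell markers lay above the array median, and on every Raji array 4 of 9 did. Between the untreated lines 8 of these 9 were lower in Raji, and CD38 was higher (0.55 ± 0.16, limma, adjusted p = 0.024). Of 8 B cell markers, 7 were higher in untreated Raji and BACH2 was lower. Plasma cell markers averaged 8.41 to 9.36 per array in LP-1 and 6.19 to 6.86 in Raji, and B cell markers 4.59 to 5.05 and 7.38 to 8.12. Of the 21 measured T and NK cell, myeloid and epithelial or fibroblast markers, none differed between the untreated lines in limma's test. The inhibitor acted in both lines. MYC fell by 2.30 ± 0.16 at 4 h and by 1.85 ± 0.16 at 8 h in LP-1. The Raji fall was 1.40 ± 0.16 at both times (limma, adjusted p of at most 0.00129). HEXIM1, an inhibitor of the kinase P-TEFb whose rise marks BET inhibition, rose by 1.04 to 1.93.

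The promoters of 4 subunits on which the results below turn are shown first, to show which of them hold the letters of motifs that regulators of this pathway are known to bind. They are taken from RefSeq on GRCh38.p14 and span 250 bases before the start of the gene to 50 after it. Capitals mark matches, on either strand, to GCGCATGC (the core of the NRF1 site), CCGGAAGT (an ETS site, as for GABPA), CACGTG (the E-box of MYC and MAX) or AAGATGGC (the YY1 site). SDHA and SDHD stand for complex II, which differed between the lines, and NDUFA8 and NDUFV3 are the members that rose with the inhibitor in Raji. The table holds no SDHC promoter.
SDHA: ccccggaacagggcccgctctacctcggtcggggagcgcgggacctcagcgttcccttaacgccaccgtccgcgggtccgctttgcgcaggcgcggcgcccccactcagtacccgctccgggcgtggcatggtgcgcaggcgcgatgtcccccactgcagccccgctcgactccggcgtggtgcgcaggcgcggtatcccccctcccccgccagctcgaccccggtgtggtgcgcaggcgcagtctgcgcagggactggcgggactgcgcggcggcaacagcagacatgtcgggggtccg
SDHD: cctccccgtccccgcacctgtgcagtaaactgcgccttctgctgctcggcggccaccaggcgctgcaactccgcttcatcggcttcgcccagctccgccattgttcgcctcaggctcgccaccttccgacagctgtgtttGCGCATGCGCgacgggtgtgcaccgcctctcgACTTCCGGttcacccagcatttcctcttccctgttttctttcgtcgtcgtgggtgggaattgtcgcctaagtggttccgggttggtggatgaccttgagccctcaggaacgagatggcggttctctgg
NDUFA8: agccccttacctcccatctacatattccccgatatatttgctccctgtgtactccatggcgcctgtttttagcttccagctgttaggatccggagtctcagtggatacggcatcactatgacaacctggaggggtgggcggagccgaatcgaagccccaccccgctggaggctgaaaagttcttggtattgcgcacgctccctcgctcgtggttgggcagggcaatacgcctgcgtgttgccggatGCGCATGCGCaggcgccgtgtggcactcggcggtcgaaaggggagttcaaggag
NDUFV3: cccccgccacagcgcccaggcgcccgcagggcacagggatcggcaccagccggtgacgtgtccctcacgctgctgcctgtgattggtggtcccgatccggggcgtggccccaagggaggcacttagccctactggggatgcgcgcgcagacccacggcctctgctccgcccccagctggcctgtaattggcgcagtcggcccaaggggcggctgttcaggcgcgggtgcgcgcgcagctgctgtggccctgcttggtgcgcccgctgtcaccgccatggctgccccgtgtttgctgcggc
The SDHA window (chr5:218070-218369, plus strand) and the NDUFV3 window (chr21:42893059-42893358, plus strand) held no exact match to any of the 4 motifs. Inexact matches were not searched, so this does not show that a binding site is absent. The SDHD window (chr11:112086623-112086922, plus strand) held GCGCATGC on both strands in 1 overlapping run, and an ETS match further downstream. The NDUFA8 window (chr9:122159730-122160029, minus strand) held the same overlapping run close to the start of the gene. All windows start in the upstream flank and run into the transcript.

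Promoters were found for 50 of the 62 subunit genes. GCGCATGC was present in 10 of the 50 (20%, against 3.68% of the 27305 genes with a promoter in the table and 4.89% of the 15843 protein-coding ones). The 10 were ATP5F1C, ATP5MC2, ATP5PF, COX5B, NDUFA5, NDUFA6, NDUFA8, NDUFS6, NDUFS7 and SDHD. AAGATGGC was present in 9 (18.0%, against 3.52% and 4.66%) and CCGGAAGT in 8 (16.0%, against 4.95% and 6.97%). CACGTG was present in 6 (12.0%, near the 8.77% of all and 10.9% of protein-coding genes), namely ATP5MC1, ATP5PB, NDUFA11, NDUFA7, NDUFS7 and UQCR11. COX5B, ATP5PF and SDHD held both GCGCATGC and CCGGAAGT. A match describes these letters only and is not a binding site.

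Most subunits gave strong signals. Of the 62, 51 lay above the array median on all 20 arrays and 8 lay below it on all 20. The 8 were SDHD, UQCRBP1, ATP5MGL and 5 isoforms of complex IV that are known from other tissues: COX4I2, a lung and hypoxia isoform, COX7A1, a heart and muscle isoform, COX6B2, COX7B2 and COX8C, which are known from testis. COX7B2 had the lowest mean, 2.29, and ranged from 1.77 to 2.55 in LP-1 and from 1.96 to 2.85 in Raji. COX6A2, the heart and muscle form of subunit 6A, was the exception among the isoforms, at 5.59 to 6.06 in LP-1 and 5.64 to 6.24 in Raji. None of these 6 isoforms passed the test in any of the comparisons of inhibitor with inactive compound or between the untreated lines. SDHC lay below the array median on 10 of the 20 arrays, NDUFB3 on 18 and ATP5PB on 19. A low value may come from the probes as well as from the transcript, so levels are not compared between genes. The probe sets with the highest mean in each complex were those for NDUFA1 (10.82), SDHA (9.01), UQCRC2 (10.27), COX6B1 (11.88) and ATP5MC3 (11.77). The lowest were those for NDUFB3 (4.48), SDHD (4.21), UQCRBP1 (3.16), COX7B2 and ATP5MGL (3.53). RefSeq names 18 pseudogenes after COX6C, 12 after NDUFA5, 8 after ATP5PB, 7 after SDHD, 5 each after SDHC and NDUFB3 and 4 each after SDHA and COX7B. Signal from near-identical copies cannot be told apart from that of the gene.

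The main question put by the design is what the BET inhibitor did beyond its inactive enantiomer. For the oxidative phosphorylation subunits no change passed the test at any single time in either line. In limma, 0 of 62 were called in LP-1 at 4 h, where 2.28% of all probe sets were, and 0 at 8 h, where 5.73% were. In Raji, 0 of 62 were called at 4 h against 1.78% of all probe sets, and 0 at 8 h against 1.88%. At an unadjusted p under 0.05 the counts of subunits were 0, 3, 3 and 4. The data bound most changes to a modest size. The 95% interval of the change lay within 1.5-fold either way for 41 of 62 subunits in LP-1 at 4 h and 38 at 8 h, and for 33 and 39 in Raji. It lay within 2-fold for 53 to 55 subunits in each of the 4 comparisons. Over all probe sets, 37.1% to 42.1% had an interval within 1.5-fold. The median standard error was 0.17 for the subunits and 0.20 for all probe sets, so subunits were measured somewhat more tightly than the average probe set.

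**Figure D1:**
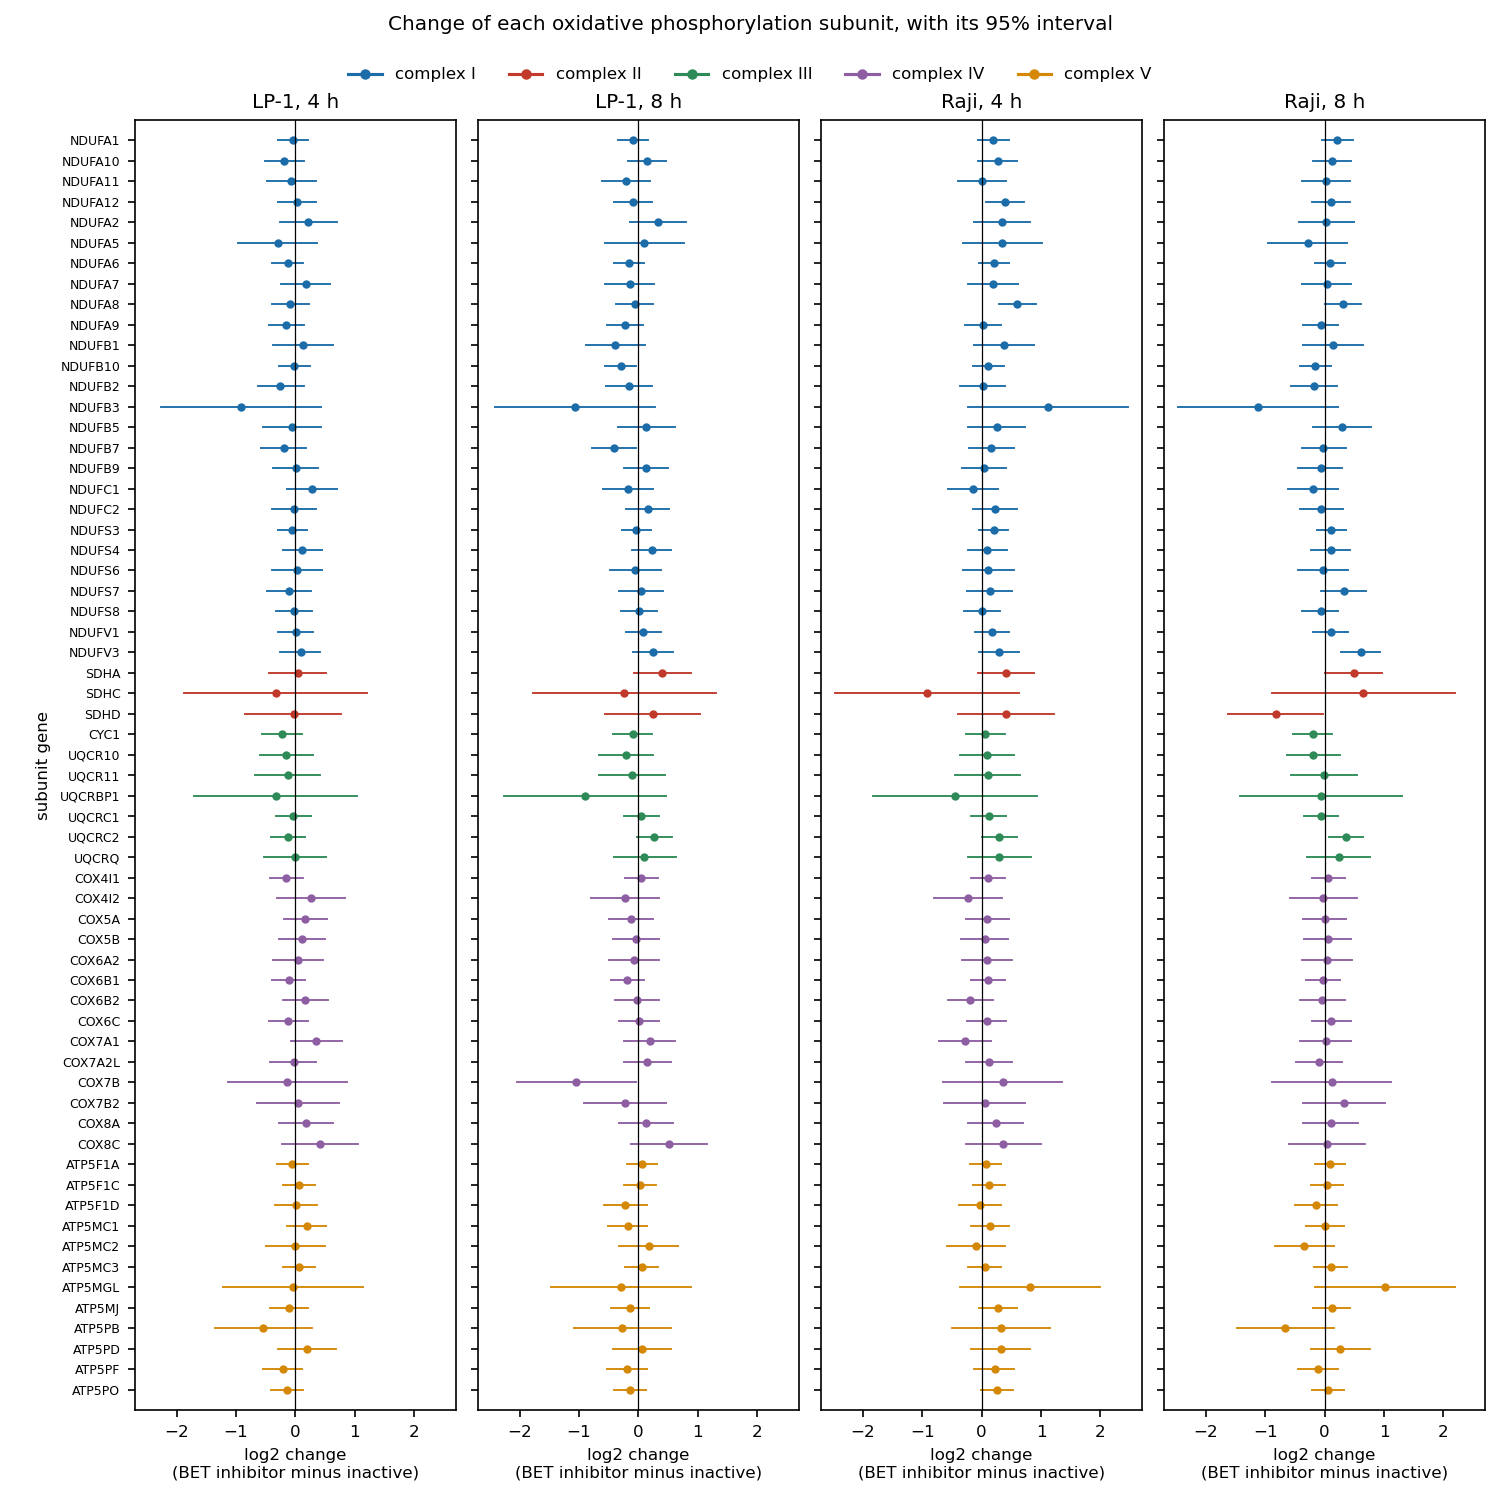
Log2 change of each of the 62 subunits (inhibitor minus inactive compound, horizontal axis) in each line at each time, grouped and coloured by complex, with its 95% interval as a line. Most points sit close to 0. Estimates ran from -0.91 to 0.42 in LP-1 at 4 h and from -1.07 to 0.52 at 8 h. In Raji they ran from -0.92 to 1.12 at 4 h and from -1.12 to 1.01 at 8 h. Those beyond 1.5-fold numbered 1, 3, 4 and 6 in this order. No subunit passed the adjusted test, and the widest intervals belong to probe sets such as NDUFB3, SDHC and UQCRBP1.

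In LP-1 the subunits' median change was near 0 at both times, but at 8 h it lay below that of all probe sets. It was -0.03 at 4 h and -0.06 at 8 h, beside -0.04 and 0.06 over all probe sets. Over the brighter probe sets (those with a mean above the middle of all means) it was -0.13 and 0.07. Above 0 at 4 h were 26 of 62 subunits, beside 44.9% of all probe sets and 30.7% of the brighter ones. At 8 h 27 of 62 were, beside 59% and 58.7%. By complex, the medians at 4 h were -0.03 for complex I, -0.03 for complex II, -0.13 for complex III, 0.08 for complex IV and -0.02 for complex V. At 8 h they were -0.06, 0.24, -0.10, -0.03 and -0.15. All 7 complex III members lay below 0 at 4 h, by 0.01 to 0.33, but only 4 of 7 did at 8 h. Under quantile normalization of the deposited values the 4 h median of all 62 turned to 0.06, so its sign depended on the scaling. The 8 h median was -0.14 with arrays centred on their medians and turned to 0.02 without inactive replicate 2.

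At 8 h in LP-1 the lowest p among falls belonged to NDUFB10, NDUFB7 and COX7B. NDUFB10, an accessory subunit of the membrane arm of complex I, read 7.67 and 7.82 with the inactive compound and 7.39 and 7.49 with the inhibitor. NDUFB7, another subunit of that arm, read 7.49 and 7.58 against 7.29 and 6.96. In both genes the inhibitor arrays lay below the inactive arrays, but with differences of -0.30 ± 0.12 and -0.42 ± 0.17 neither passed (limma, adjusted p = 0.185 and 0.208). COX7B, a small subunit of complex IV, read 11.86 and 12.04 with the inactive compound and 9.80 and 12.00 with the inhibitor. Its change of -1.05 ± 0.46 (limma, adjusted p = 0.242) came from 1 array: without inhibitor replicate 1 it was 0.05, and without replicate 2 it was -2.15 with an adjusted p of 9.48e-05. Every other LP-1 value of COX7B lay between 11.69 and 12.08. On the side of higher values, UQCRC2, a core subunit of complex III, changed by 0.27 ± 0.13, SDHA by 0.40 ± 0.22 and COX8C by 0.52 ± 0.29, with adjusted p from 0.305 to 0.386 in limma.

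At 4 h in LP-1 the lowest p values were those of NDUFB3 (-0.91 ± 0.62), CYC1, the cytochrome c1 of complex III (-0.22 ± 0.15), and ATP5PB, the b subunit of the peripheral stalk of ATP synthase (-0.54 ± 0.38). On the other side were COX7A1 (0.35 ± 0.20), NDUFC1 (0.28 ± 0.19) and COX8C (0.42 ± 0.29). Adjusted p ran from 0.472 to 0.580 in limma. The inhibitor and inactive arrays overlapped for COX8C and did not for the other 5, but no change passed the test. Averaged over both times, LP-1 still gave 0 of 62 called, where 7.06% of all probe sets were, and 3 at an unadjusted p under 0.05. The interval then lay within 1.5-fold for 53 of 62 subunits. The lowest p among falls were those of NDUFB7 (-0.31 ± 0.12), NDUFB3 (-0.99 ± 0.44) and NDUFA9 (-0.19 ± 0.10), and among rises those of COX8C (0.47 ± 0.21), COX7A1 (0.27 ± 0.14) and NDUFA2 (0.28 ± 0.15). NDUFB3 passed (limma, adjusted p = 0.0424) once inhibitor replicate 1 of 8 h was left out.

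In Raji at 4 h most subunits lay slightly above 0. The change was above 0 for 54 of 62, with a median of 0.13, beside 0.01 over all probe sets and 0.08 over the brighter ones (those with a mean above the middle of all means). Above 0 were 25 of 26 members of complex I (median 0.20), 2 of 3 of complex II, 6 of 7 of complex III (0.11), 11 of 14 of complex IV (0.09) and 10 of 12 of complex V (0.18). Of all probe sets 51.5% lay above 0, and of the brighter ones 62.1%. Both inhibitor arrays lay above both inactive arrays for 25 subunits (40.3%), which 23.5% of all probe sets did. They lay below for 2 subunits, COX6B2 and COX7A1 (3.23%, against 20.2%). The lean was not seen at 8 h. There 37 of 62 lay above 0 with a median of 0.04, both inhibitor arrays were above for 10 subunits (16.1%, against 20.3% of all probe sets) and below for 8 (12.9%, against 20% of all).

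The same counts in LP-1 were 8 subunits above (12.9%, against 17.6% of all probe sets) and 13 below (21.0%, against 26.4%) at 4 h, and 6 above (9.68%, against 27.9%) and 14 below (22.6%, against 16.3%) at 8 h.

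The lean in Raji at 4 h is measured against the inactive arrays, so it depends on their level by construction. The subunits' median minus the median of all probe sets was 2.86 and 2.81 on the inactive arrays of 4 h, the lowest of all 20 arrays. It was 2.95 and 2.97 on the inhibitor arrays of 4 h and 2.95 and 3.01 on the untreated arrays. By this measure the inhibitor arrays lay level with the untreated ones, while the inactive arrays lay below both. Inactive replicate 1 of 4 h also had the lowest 75th percentile of all arrays (6.75, against up to 7.23). Without it the median change of the subunits was 0.07, and without inactive replicate 2 it was 0.24. Under quantile normalization it was 0.06, and with arrays centred on their medians 0.09. Set against the brighter probe sets alone, the subunits' median was 1.24 and 1.18 above theirs on the inactive arrays. It was 1.24 and 1.17 above on the inhibitor arrays and 1.27 and 1.33 on the untreated arrays. Against this yardstick the inhibitor and inactive arrays of 4 h overlapped, and both groups lay below the untreated arrays. The part of these arrays in the result was not tested beyond these values. The difference of inactive minus untreated in Raji at 4 h, which shares the inactive arrays, was below 0 for 52 of 62 subunits. Its median was -0.19, beside -0.04 over all probe sets, and 0 of 22011 probe sets passed the test there. At 8 h the sign of the small median rested on 1 array, since it was -0.05 without inactive replicate 1.

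**Figure D2:**
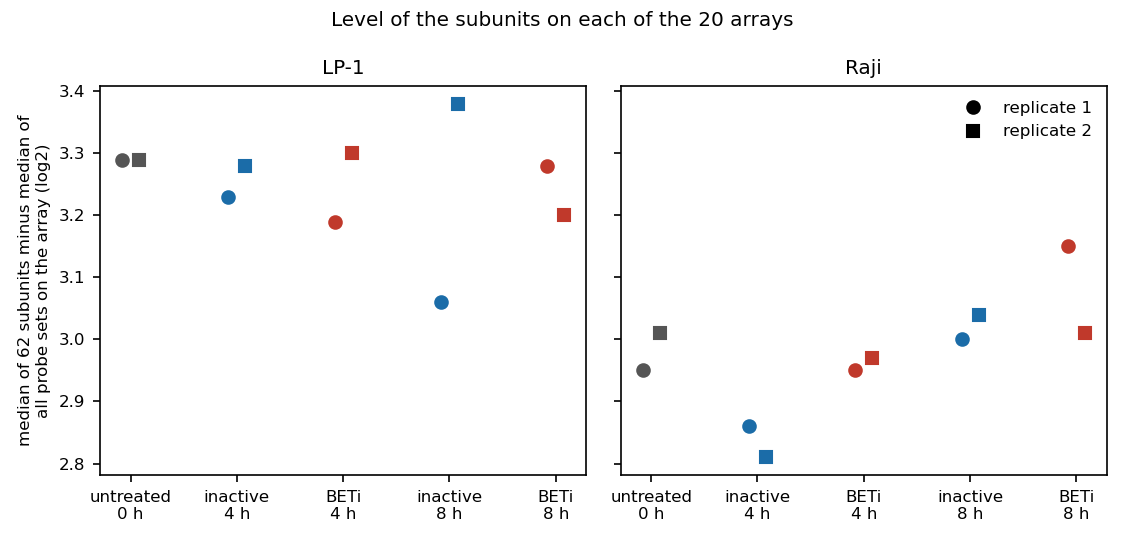
Median log2 value of the 62 subunits minus the median of all probe sets on the same array (vertical axis), for each replicate of each group in LP-1 and Raji. Both Raji arrays of the inactive compound at 4 h (2.86 and 2.81) are the lowest points, and the Raji inhibitor arrays of 4 h (2.95 and 2.97) sit beside the untreated ones.

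Averaging both times in Raji, 2 of 62 subunits rose, where 6.29% of all probe sets were called, so the share of subunits was below the background, and 7 had an unadjusted p under 0.05. Both belong to complex I. NDUFA8, an accessory subunit with twin CHCH motifs, read 8.31 and 8.32 untreated. It read 7.59 and 7.55 with the inactive compound at 4 h and 8.19 and 8.18 at 8 h. With the inhibitor it read 8.09 and 8.26 at 4 h and 8.46 and 8.53 at 8 h. The inhibitor arrays lay above the inactive arrays at both times, yet at 4 h they lay below the untreated arrays. The mean change was 0.46 ± 0.10, or 1.37-fold (limma, adjusted p = 0.0184). It was 0.60 ± 0.14 at 4 h (adjusted p = 0.0571, and from 0.0363 to 0.0479 under 4 other settings, over all alternatives 0.0363 to 0.406). The difference between the inactive compound at 4 h and untreated cells, which shares those inactive arrays, was -0.74 ± 0.14, with an unadjusted p of 0.000207 and an adjusted p of 0.310 in limma. NDUFA8 has the palindromic NRF1-type match in its promoter shown above, and NDUFV3, the other called subunit, has no exact match. A link between the match and the change was not tested.

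NDUFV3, an accessory subunit of the NADH-oxidizing module of complex I, read 6.38 and 6.42 untreated, 6.37 and 6.36 with the inactive compound at 4 h and 6.28 and 6.32 at 8 h. With the inhibitor it read 6.69 and 6.64 at 4 h and 6.94 and 6.89 at 8 h. The inhibitor arrays lay above both the inactive and the untreated arrays at each time. The mean change was 0.45 ± 0.11, or 1.37-fold (limma, adjusted p = 0.0267), and it was 0.61 ± 0.15 at 8 h (adjusted p = 0.0703). In LP-1 the NDUFV3 arrays of 8 h overlapped, at 6.88 and 6.55 with the inactive compound and 7.18 and 6.75 with the inhibitor. UQCRC2 came next in order of p in Raji. It read 10.02 and 9.96 with the inactive compound and 10.19 and 10.38 with the inhibitor at 4 h, and 9.92 and 9.86 against 10.14 and 10.36 at 8 h. Its mean change of 0.33 ± 0.10 missed the threshold (adjusted p = 0.0640) and passed it with an intensity trend or with the dimmest 7337 probe sets left out (0.0381 and 0.0414; over all alternatives 0.0381 to 0.230). NDUFV3 lost its call without any 1 of the 8 arrays and under quantile normalization (adjusted p = 0.119, over all alternatives 0.0158 to 0.119). NDUFA8 lost its call without replicate 2 of any 1 of the 4 groups (adjusted p up to 0.0868) and kept it without replicate 1 of each.

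**Figure D3:**
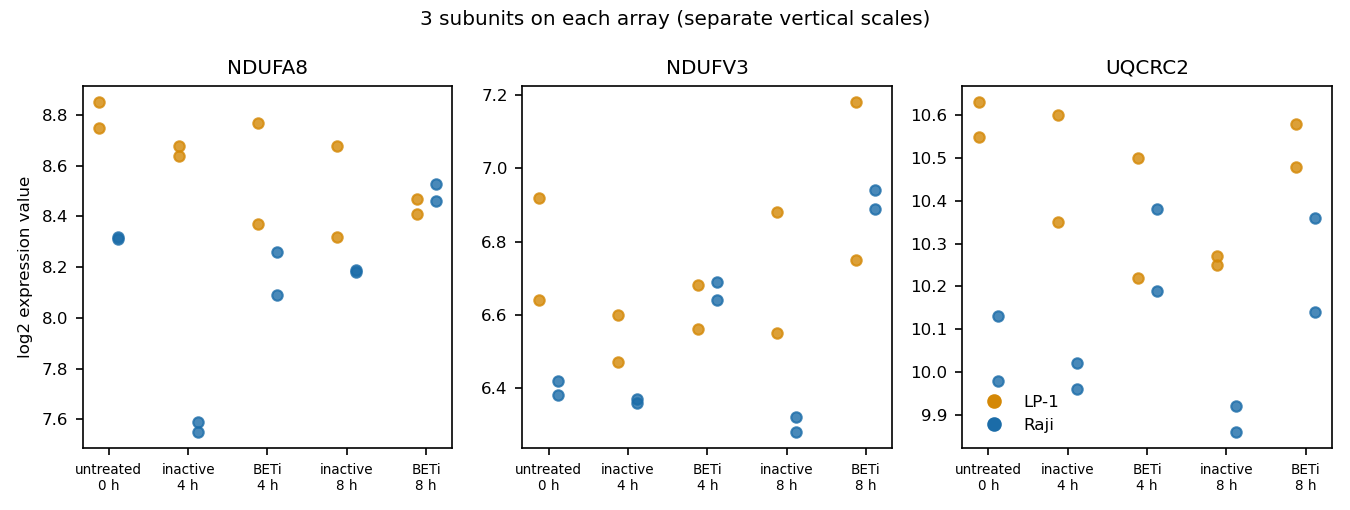
Log2 expression of NDUFA8, NDUFV3 and UQCRC2 on every array, by treatment and time (horizontal axis), for LP-1 and Raji. In Raji, NDUFV3 with the inhibitor stands above all other Raji arrays, whereas NDUFA8 with the inactive compound at 4 h stands below all other Raji arrays.

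The other low p values in Raji did not pass. NDUFA12, an accessory subunit of complex I, changed by 0.40 ± 0.15 at 4 h (limma, adjusted p = 0.224). SDHA changed by 0.49 ± 0.22 at 8 h (adjusted p = 0.364). Among falls at 8 h, SDHD changed by -0.82 ± 0.37, NDUFB3 by -1.12 ± 0.62 and ATP5PB by -0.66 ± 0.38 (adjusted p from 0.370 to 0.533), and all of them are dim on these arrays. For SDHD the inactive compound at 8 h, on the same inactive arrays, lay 0.63 ± 0.37 above untreated cells (limma, adjusted p = 0.996). At 4 h the lowest p among falls were those of COX7A1 (-0.28 ± 0.20), SDHC (-0.92 ± 0.71) and COX6B2 (-0.19 ± 0.17), and in the average of both times those of ATP5MC2, a c-ring gene of ATP synthase (-0.21 ± 0.16), NDUFC1 (-0.17 ± 0.14) and COX6B2 (-0.11 ± 0.12). The SDHC value at 4 h was set by inhibitor replicate 2, which read 1.85 where replicate 1 read 4.43. Without that array the SDHC change was 0.37.

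No subunit passed the test for a difference in response between times or lines. In limma 0 of 62 were called for 8 h against 4 h in LP-1 and in Raji, where 0% of all probe sets were called in each. For the response of Raji against that of LP-1, 0 of 62 were called at 4 h, against 0.114% of all probe sets, and 0 at 8 h, against 0.245%. At an unadjusted p under 0.05 the counts were 0 and 2 between times and 5 and 0 between lines. NDUFA8 had the lowest p between lines at 4 h, with a difference of 0.69 ± 0.20 (adjusted p = 0.162). Between times in Raji, the lowest was that of NDUFB3 at -2.23 ± 0.88 (adjusted p = 0.804). NDUFB3 with the inactive compound read 2.87 and 4.48 at 4 h and 5.21 and 5.35 at 8 h, so the 4 h replicates lay well apart.

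The inactive compound was also compared with untreated cells. No subunit passed: 0 of 62 were called in LP-1 at 4 h, against 0.0136% of all probe sets, and 0 at 8 h, against 0.504%. In Raji 0 of 62 were called at 4 h and at 8 h, and so were 0% of all probe sets. The unadjusted counts in limma were 1, 4, 7 and 0. In LP-1 the lowest p at 4 h was that of COX8C (-0.86 ± 0.29, limma, adjusted p = 0.808). At 8 h the lowest were those of SDHD (-1.09 ± 0.37), NDUFB7 (0.48 ± 0.17), UQCRC2 (-0.33 ± 0.13) and COX5B (0.44 ± 0.18). Their adjusted p ran from 0.194 to 0.276. The positive changes of COX8C at 4 h and UQCRC2 at 8 h given above were thus measured from inactive arrays that averaged below untreated. NDUFB7 thus lay above untreated with the inactive compound and below that with the inhibitor, where it read 7.29 and 6.96 beside 7.15 and 6.97 untreated.

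Between the untreated lines, 14 of 62 subunits differed, 2 higher and 12 lower in Raji. This is 22.6% of the subunits, beside 24.3% of all probe sets, a share near the background. The median difference, Raji minus LP-1, was -0.19, beside -0.03 over all probe sets and -0.11 over the brighter ones. It was -0.06 with arrays centred on their medians and -0.04 under quantile normalization, beside 0.11 and 0.07 over all probe sets. The subunits' median was below that of all probe sets under each of these scalings. All 3 measured subunits of complex II were among the 12 that were lower, as were 6 of 26 of complex I and 1 each of complexes III, IV and V.

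Complex II, succinate dehydrogenase, is the enzyme of the citric acid cycle that sits in the respiratory chain. SDHA is its flavoprotein, which oxidizes succinate, and SDHC and SDHD anchor it in the membrane and hold the ubiquinone site. SDHA read 9.28 and 9.62 in untreated LP-1 and 8.28 and 8.17 in untreated Raji, a difference of -1.22 ± 0.22, or 2.33-fold (limma, adjusted p = 0.000871). Over all 10 arrays a line SDHA ranged from 9.02 to 9.88 (median 9.41) in LP-1 and from 8.03 to 9.11 (median 8.59) in Raji, so the ranges touch only at their edges. SDHC read 7.87 and 8.60 in untreated LP-1 and 4.21 and 4.48 in Raji, a difference of -3.89 ± 0.71 (adjusted p = 0.00106). Over all arrays it ranged from 7.25 to 8.60 in LP-1 and from 1.85 to 4.48 in Raji, with no overlap, and in Raji it lay below the array median on every array. Detection was not tested against background, so the size of the SDHC difference is uncertain at its Raji end. SDHD read 5.24 and 5.29 against 3.44 and 4.06, a difference of -1.52 ± 0.37 (adjusted p = 0.00840), but it was dim in both lines and its ranges over all arrays overlapped, at 4.06 to 5.29 and 3.34 to 4.93. SDHA and SDHC kept the call under all 10 other settings run. SDHD lost it in 1 of 9, without Raji replicate 1 (adjusted p = 0.0922). SDHB was not measured. The probe sets for SDHC and SDHD may also read pseudogene copies, as counted above.

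Complex I gave 6 of the other lower subunits. NDUFS4, an accessory subunit needed for a stable complex I, read 8.72 and 8.91 in untreated LP-1 and 8.13 and 7.91 in Raji, a difference of -0.80 ± 0.15 (limma, adjusted p = 0.00153). It kept the call under all 10 settings and its ranges over all arrays did not overlap, at 8.62 to 8.94 and 7.91 to 8.38. NDUFB1 (-0.77 ± 0.23, adjusted p = 0.0271) and NDUFC2 (-0.71 ± 0.17, adjusted p = 0.00710), both of the membrane arm, came next. NDUFB1 lost its call in 6 of 10 settings, among them without any 1 of the 4 arrays (adjusted p up to 0.152), and NDUFC2 in 2 of 10, without Raji replicate 1 and under quantile normalization (up to 0.0970). Outside the rule for named genes, and chosen after their values were seen, NDUFA6 (-0.62), NDUFB9 (-0.58), NDUFA8 (-0.48), UQCRC2 (-0.53), COX6C (-0.60) and ATP5MJ, a small membrane subunit of ATP synthase (-0.55), complete the 12.

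The 2 subunits higher in Raji were NDUFA9, a complex I subunit at the base of the matrix arm, and ATP5F1D, the delta subunit of the F1 head. NDUFA9 read 9.59 and 9.37 in untreated LP-1 and 9.92 and 10.09 in Raji (0.52 ± 0.14, limma, adjusted p = 0.0129). ATP5F1D read 7.45 and 7.42 against 7.97 and 7.96 (0.53 ± 0.16, adjusted p = 0.0309). NDUFA9 lost its call without replicate 2 of either line, and ATP5F1D without any 1 of the 4 arrays (adjusted p up to 0.128 and 0.129). NDUFA9 was the 1 subunit that lay higher on every Raji array than on every LP-1 array (1.61% of the members, against 4.91% of all probe sets). It ranged from 8.98 to 9.59 in LP-1 and from 9.81 to 10.09 in Raji. ATP5F1D overlapped, since the treated Raji arrays lay at 7.42 to 7.93. The reverse, every LP-1 array above every Raji array, held for 12 subunits (19.4%, against 10.4% of all probe sets): NDUFA6, NDUFB1, NDUFB9, NDUFC2, NDUFS3, NDUFS4, SDHC, UQCRC1, COX6C, COX7A2L, COX8A and ATP5MJ. The count of 14 depended on single arrays: it was 8 and 6 without Raji untreated replicate 2 or 1, and 7 and 10 without LP-1 untreated replicate 2 or 1.

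**Figure D4:**
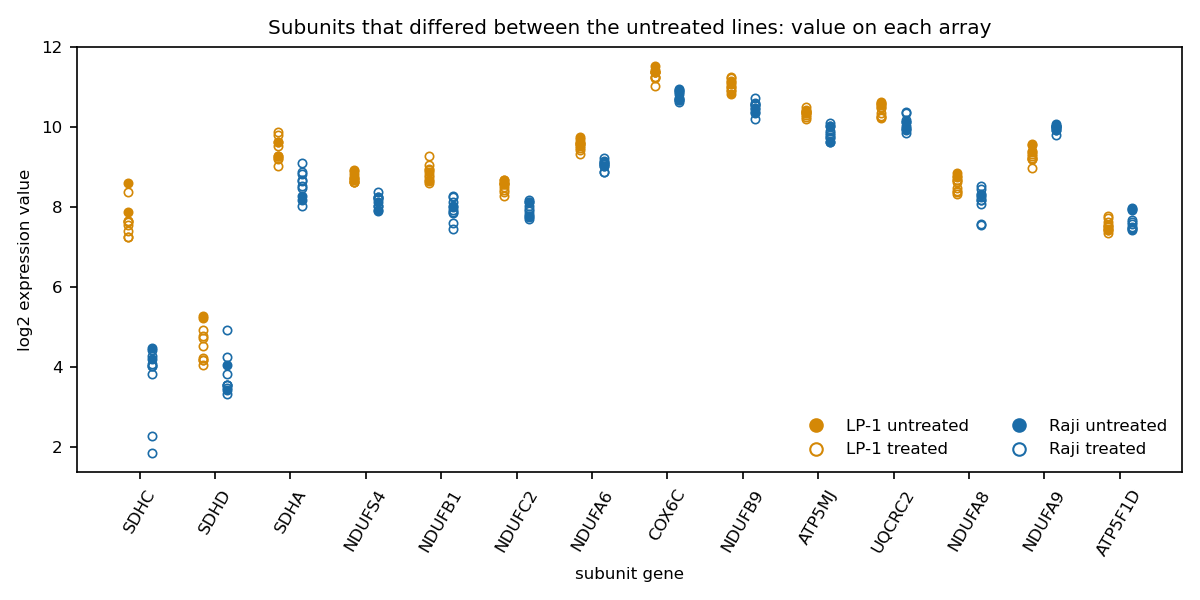
Log2 expression of the 14 subunits that differed between the untreated lines, on each array (filled, untreated; open, treated), ordered by the size of the difference. SDHC shows no overlap, with LP-1 at 7.25 to 8.60 and Raji at 1.85 to 4.48, below the array median, and NDUFA9 and ATP5F1D are the ones higher in Raji.

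Other genes of the pathway were measured through 5 lists taken from textbook knowledge: assembly factors, factors that keep and transcribe mitochondrial DNA, nuclear regulators of mitochondrial biogenesis, the citric acid cycle with pyruvate entry, and electron carriers with nucleotide exchange. The lists were chosen with earlier results of these data known, so their shares of called genes are a description only. The background of all probe sets includes 5171 with no symbol. Together the lists held 113 measured genes. Of these, 7 were called in LP-1 at 4 h (6.19%, against 2.28% of all probe sets) and 13 at 8 h (11.5%, against 5.73%), and 3 and 7 in Raji (2.65% and 6.19%, against 1.78% and 1.88%).

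Among regulators, PPARGC1A and PPRC1 fell in LP-1 at both times and SIRT1 rose. PPARGC1A, PGC-1alpha, the coactivator best known for driving mitochondrial biogenesis, read 6.13 and 6.27 with the inactive compound and 4.74 and 5.22 with the inhibitor at 4 h. At 8 h it read 5.87 and 6.04 against 4.88 and 5.16. It fell by 1.22 ± 0.17 and 0.93 ± 0.17 (limma, adjusted p = 0.00327 and 0.00727), to below the array median on all 4 inhibitor arrays, so the sizes are uncertain. In Raji PPARGC1A lay at 3.13 to 3.73 on every array, below the array median, and changed by 0.06 and 0.37 with no call. PPRC1, the PGC-1-related coactivator, fell in LP-1 by 1.21 ± 0.13 and 1.20 ± 0.13 (adjusted p = 0.000777 and 0.000262), from 8.19 and 8.19 to 6.99 and 6.96 at 4 h. In Raji PPRC1 fell by 0.57 ± 0.13 at 8 h (adjusted p = 0.0486) and changed by -0.44 ± 0.13 at 4 h (adjusted p = 0.125). SIRT1, a deacetylase that activates PGC-1alpha, rose instead. Its LP-1 changes were 0.82 ± 0.14 and 1.37 ± 0.14, and its Raji change at 4 h was 0.99 ± 0.14. NRF1 itself changed by 0.13 and 0.45 in LP-1 and 0.51 and 0.23 in Raji, and none of these passed (adjusted p from 0.142 to 0.795). Of 12 regulators measured, 2 fell and 1 rose at each time in LP-1, 1 rose in Raji at 4 h and 1 fell at 8 h.

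Of the factors of mitochondrial DNA, 3 fell in LP-1 at 1 of the times and TWNK at both. TWNK, the Twinkle helicase that unwinds mitochondrial DNA for replication, read 7.42 and 7.38 with the inactive compound and 5.69 and 6.0 with the inhibitor at 4 h, and 7.0 and 7.04 against 6.09 and 5.97 at 8 h. The arrays did not overlap, and TWNK fell by 1.55 ± 0.12 and 0.99 ± 0.12 (limma, adjusted p = 0.000167 and 0.000710). In Raji it fell by 0.59 ± 0.12 at 8 h (adjusted p = 0.0307). MTERF1, a termination factor, and MGME1, an exonuclease of replication, fell by 1.04 and 0.62 in LP-1 at 4 h. POLRMT, the mitochondrial RNA polymerase, fell by 0.45 in LP-1 at 8 h. At the other time MTERF1 and POLRMT lay the other way, with no call. MTERF1 read 7.06 and 7.12 with the inactive compound and 7.15 and 7.43 with the inhibitor at 8 h. POLRMT read 7.51 and 7.52 against 7.71 and 7.59 at 4 h. The MGME1 arrays of 8 h overlapped. TFB2M, which starts transcription with POLRMT, fell by 0.88 in Raji at 8 h, from 8.47 and 8.05 to 7.39 and 7.36. Of 19 measured, 3 were called lower at 4 h and 2 at 8 h in LP-1, and 0 and 2 in Raji. None was called higher. The list's median change in LP-1 was -0.43 at 4 h and -0.15 at 8 h, beside -0.04 and 0.06 over all probe sets, and -0.13 and 0.07 over the brighter ones. In Raji it was 0.12 at 4 h and -0.10 at 8 h, beside 0.01 and 0 over all probe sets.

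Assembly factors changed in few members. COA7, a factor of complex IV assembly, read 7.38 and 7.43 with the inactive compound and 5.35 and 6.07 with the inhibitor in LP-1 at 4 h, and fell by 1.69 there and by 1.47 at 8 h (limma, adjusted p = 0.00309 and 0.00355). In Raji it fell by 1.01 and 0.99 (adjusted p = 0.0471 and 0.0492). COA7 was the 1 listed gene that passed in all 4 comparisons. COX10, which makes the haem a precursor, and TACO1, which activates translation of a complex IV subunit encoded in mitochondrial DNA, fell in LP-1 at 8 h by 0.98 and 0.88. ATPAF2, an assembly factor of ATP synthase, rose in Raji at 8 h by 0.54. Of 36 measured, 1 and 3 fell in LP-1 and 1 and 1 in Raji, with 1 rise.

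Among genes that feed the chain, 4 rose and DLAT fell in LP-1 at 8 h, and MPC1 rose in Raji at both times. MPC1, a subunit of the mitochondrial pyruvate carrier, read 7.62 and 7.74 with the inactive compound and 8.25 and 8.18 with the inhibitor in Raji at 4 h, and 7.62 and 7.68 against 8.51 and 8.47 at 8 h. It rose by 0.53 and 0.84 in Raji and by 0.41 in LP-1 at 8 h (limma, adjusted p = 0.0316, 0.00314 and 0.0468). OGDH, of the 2-oxoglutarate dehydrogenase complex, PDP1, the phosphatase that activates pyruvate dehydrogenase, and PDHB, of pyruvate dehydrogenase itself, rose in LP-1 at 8 h by 0.91, 0.92 and 0.56, while DLAT, another part of that enzyme, fell by 0.54. Of 22 measured, 4 rose and 1 fell in LP-1 at 8 h, none passed at 4 h, and 1 rose at each time in Raji. Among 24 electron carriers and exchange genes, 0 passed in LP-1 at both times and in Raji at 4 h, and SQOR, which feeds electrons from sulfide to ubiquinone, rose by 0.65 in Raji at 8 h, where it lay below the array median on every array, so the size is uncertain. In LP-1 the calls of COA7, TWNK and PPRC1 at both times, of TACO1 and SIRT1 at 8 h, and in Raji that of MPC1 at 8 h held under all 11 other settings. In LP-1 MGME1 held in 3 of 11, MPC1 in 2, PDHB in 4, and POLRMT and PDP1 in 5, and the remaining LP-1 calls in 7 to 9. Of the latter, PPARGC1A at 4 h was lost without inactive replicate 2, PPARGC1A at 8 h without inactive replicate 2 or inhibitor replicate 1, MTERF1 without inhibitor replicate 1 or inactive replicate 2, COX10 without inactive replicate 1, and SIRT1 at 4 h without either inactive array. OGDH and DLAT were each lost without any of 3 arrays. In Raji COA7 held in 6 of 11 settings at each time, TWNK in 6, PPRC1 in 5, TFB2M in 7, SQOR in 6, ATPAF2 in 4 and MPC1 at 4 h in 4. Each of these Raji calls was lost without any 1 of its 4 arrays, except that of TFB2M, which held without inactive replicate 2. SIRT1 in Raji at 4 h held in 10 of 11 and was lost without inhibitor replicate 2.

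**Figure D5:**
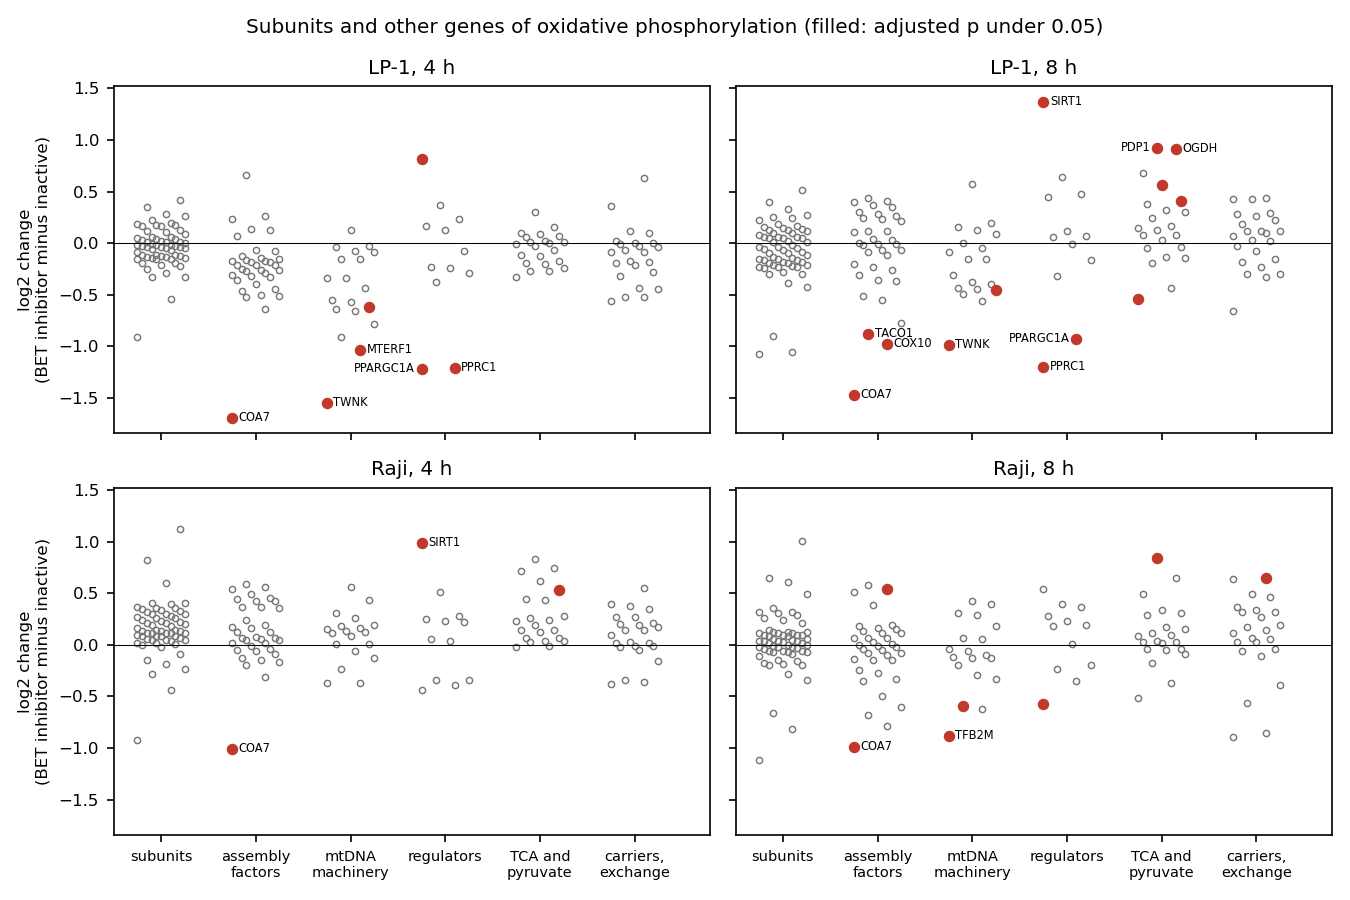
Log2 change (inhibitor minus inactive compound) of the 62 subunits and of 113 other genes of the pathway in 5 lists, 1 point a gene, for each line and time, with filled points for an adjusted p under 0.05. The subunits carry no filled point in any panel, while COA7 is filled in all 4. TWNK and PPRC1, as falls, and SIRT1 and MPC1, as rises, are filled in 3 each.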

How the data were processed

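Total RNA of 20 samples was amplified with a whole-transcript kit (NuGEN), labelled with biotin and hybridised to Affymetrix exon arrays, per the labels. The deposited values are log2 expression per transcript-level probe set, made by the authors with RMA in Affymetrix Expression Console on hg19, per the submitters' processing notes, with versions not stated. RMA corrects background, normalizes probes by quantile and summarises by median polish. Differences of dim probes tend to be shrunk in RMA values. The values were used as deposited.

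Groups came from the sample labels. A linear model with 1 mean for each of the 10 groups was fitted to all 22011 probe sets over 20 arrays with limma 3.58.1 in R 4.3.3 (lmFit, contrasts.fit, eBayes), leaving 10 residual degrees of freedom. In 15 comparisons p-values were adjusted by Benjamini-Hochberg over all probe sets. The script was tested on simulated data. Of the probe sets, 14432 had 1 symbol, 2408 several and 5171 none in the platform annotation. For a gene the probe set with the highest mean stood. Current symbols, and pseudogene names, came from RefSeq through Entrez identifiers, which matched 14404 of the 14432. The members and lists were chosen with earlier results of these data known.

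Named were subunits called for inhibitor against inactive compound at a single time; the 3 with the lowest p each way in those comparisons and in the averages over times; up to 6 called each way with the largest difference between untreated lines; in the other comparisons up to 2 with the lowest p each way; the tissue-restricted isoforms; and the highest and lowest mean of each complex. From the other lists the rule was up to 3 called genes each way per line, by lowest p. Named beyond this rule were POLRMT and MPC1 in LP-1, and NRF1, which was not called. Replicate numbers did not pair arrays: differences between replicates correlated across groups at -0.03 to 0.12 in LP-1 and -0.16 to 0.05 in Raji. The alternatives tried were quantile normalization, centring on the array median, leaving out the dimmest 7337 probe sets, an intensity trend, array weights, a replicate block, each line on its own, and leaving out each array. Every subunit gene had 1 probe set of 1 symbol, so averaging probe sets gave no alternative.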

Additional observations from a re-analysis of the deposited data

How the results depend on the processing

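The finding of 0 called subunits for inhibitor against inactive compound held in LP-1 at 4 h under all 11 alternatives. In LP-1 at 8 h, in the average of both times and in the difference between times, leaving out 1 array gave 0 to 1. In Raji 1 subunit, NDUFA8, was called at 4 h under quantile normalization, with the dimmest probe sets left out, with an intensity trend and with array weights, and 1, NDUFV3, at 8 h with the dimmest probe sets left out. The 2 called in the Raji average became 1 under quantile normalization and 0 to 1 when 1 array was left out. The difference between the lines' responses gave 0 to 1 when 1 array was left out, at 4 h and at 8 h. Between untreated lines the count of 14 became 22 with array weights and 6 to 10 without single arrays. The subunits' median change moved to 0.06 in LP-1 at 4 h under quantile normalization. It ran from 0.07 to 0.24 in Raji at 4 h and from -0.05 to 0.10 at 8 h when 1 array was left out. Between untreated lines it was -0.04 under quantile normalization and -0.06 with centred arrays. COX7B in LP-1 at 8 h ran from -2.15 to 0.05 and SDHC in Raji at 4 h from -2.21 to 0.37 when 1 array was left out, each reversing without 1 inhibitor array. Beyond the arrays named, the causes were not tested.

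With the replicate block, the counts were 2 in the Raji average and 17 between untreated lines, and 0 in the 4 comparisons at single times. The alternative of averaging the probe sets of a gene was not run, since each of these genes has 1 such probe set. With 2 arrays a group, a change under about 1.5-fold could not be bounded for 21 to 29 of the 62 subunits at a single time.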
